A study of Mus musculus with 18 samples.

Results

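The 9 genes described here encode lysosomal enzymes and activator proteins that take sphingolipids apart: Hexa, Gm2a, Galc, Arsa, Psap, Asah1, Smpd1, Gla and Neu1. They were chosen by name from the 38046 gene symbols of the deposited table. Hexa was put on this list because its value in 1 control clone at day 4, clone D7 with 2.87 rescaled TPM against 19.9 and 24.4 in the other control clones, had already been seen to stand apart. Hexa at day 4 is therefore given as a description, with no test, and the other genes were tested at every stage.

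The cells were clonal lines of mouse oligodendrocyte progenitor cells (OPCs), per the labels derived from primary neural stem cells. Clones D7, D3 and E8 are labelled control and clones 3F, D6 and 7F are labelled Thap1 null. Each was sampled 3 times, giving 18 libraries in 6 groups of 3 clones: as OPCs in growth medium with PDGF-AA (day 0), and after 2 and 4 days in oligodendrocyte differentiation medium with the thyroid hormone T3, at 40 µg per ml in the labels (DIV2 and DIV4). Thap1 encodes a zinc-dependent DNA-binding protein. How the null allele was made and whether clones came from separate animals is not given in the sources used here, so n counts clones, each a single line. A p-value uses the spread between libraries within the 6 groups, pooled over stages and genotypes, to which each clone gives 3 libraries. It speaks for these clones only.

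Sphingolipids of the plasma membrane and of myelin are brought into lysosomes and broken down stepwise, the sugars first and the ceramide core last. Most steps need both a hydrolase and a small lipid-lifting protein that presents the membrane lipid to it. Oligodendrocytes build the galactolipid-rich myelin sheath, and inherited loss of several of these enzymes causes white matter or neuronal storage disease.

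Beta-hexosaminidase A, whose alpha subunit is Hexa, removes the terminal sugar of ganglioside GM2 while GM2 is held by the activator Gm2a. Neu1 removes sialic acid from glycoproteins and glycolipids. Gla removes the terminal galactose of globosides. Arsa takes the sulfate off sulfatide and Galc then takes the galactose off galactosylceramide, the main myelin galactolipids. Psap is the precursor of the saposins, the lipid-presenting proteins for several of these steps. Smpd1 turns sphingomyelin into ceramide, and Asah1 splits ceramide.

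The promoters that the later results refer to are shown here, as RefSeq gives them on GRCm38.p6. They were picked because Gla and Arsa were the 2 genes with an E-box. Hexa and Gm2a, the 2 genes with the widest difference between genotypes in OPCs and at DIV2, had none. CACGTG is the E-box core, and TCACGTGA is the longer form found in front of many lysosomal genes. Each line runs 5′ to 3′ on the gene's own strand, in lower case, with E-box letters in capitals. The Gla stretch is chrX:134601176-134601255 (minus strand), the Arsa stretch chr15:89477426-89477505 (minus strand), the Hexa stretch chr9:59539290-59539539 (plus strand) and the Gm2a stretch chr11:55097735-55097984 (plus strand).
Gla: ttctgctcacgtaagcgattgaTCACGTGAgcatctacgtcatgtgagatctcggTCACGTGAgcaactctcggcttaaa
Arsa: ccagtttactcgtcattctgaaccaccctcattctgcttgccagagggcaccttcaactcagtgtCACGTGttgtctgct
Hexa: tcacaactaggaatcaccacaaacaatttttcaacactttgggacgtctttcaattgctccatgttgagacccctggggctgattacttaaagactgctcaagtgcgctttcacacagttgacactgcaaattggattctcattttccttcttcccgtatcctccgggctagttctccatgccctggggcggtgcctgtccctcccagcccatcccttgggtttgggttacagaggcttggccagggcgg
Gm2a: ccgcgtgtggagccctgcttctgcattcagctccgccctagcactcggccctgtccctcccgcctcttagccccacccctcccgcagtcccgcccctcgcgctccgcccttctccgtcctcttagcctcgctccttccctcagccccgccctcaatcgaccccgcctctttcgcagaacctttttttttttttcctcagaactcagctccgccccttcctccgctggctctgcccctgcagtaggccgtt

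The Gla stretch holds TCACGTGA 2 times, with CACGTG starting at -227 and -194 from the RefSeq start site. Arsa holds CACGTG once, at -16, without the longer form. Both motifs were searched on both strands in the 250 bases before each start site, and every TCACGTGA is also a CACGTG. RefSeq promoters were matched for 8 of the 9 genes, with 9 promoters in all because Psap has 2, and Asah1 is named only. CACGTG was in 2 of these 9 promoters and in 6.02% of 32851 mouse promoters. TCACGTGA was in 1 of 9 and in 0.785% of all promoters. TNNGGGCA, a motif reported for THAP1, was in the promoters of Arsa and Smpd1 and in 11.9% of all, and AANATGGC, a YY1 motif, was in none of the 9 and in 3.91% of all. A match is a description of the sequence only.

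RNA abundance is given as rescaled TPM, that is, deposited TPM (a length-scaled share of the library) divided by 1 factor per library, since a few noncoding features took up most of the TPM of control OPCs. In those 3 libraries mmu-mir-6236, Gm15662 and Gm26924 held 64.8% to 88.0% of all TPM, against 0.359% to 34.8% in the other 15. The factors were 0.125 to 0.317 for control OPCs, 0.723 to 1.36 for null OPCs and 0.956 to 2.01 for the 12 differentiated libraries. Coding transcripts of Thap1 had 1.91 to 4.39 rescaled TPM in control and 0.197 to 0.776 in null libraries, with no overlap. Summed over all its listed transcripts, as every other gene is here, Thap1 went the other way in OPCs (4.77 to 8.21 in control, 9.8 to 12 in null) and at DIV2 (3.83 to 5.07 and 6.59 to 9.04), and overlapped at DIV4. The summed level of 7 oligodendrocyte markers (Mbp, Mag and others) was 105 to 682 in OPCs and 1510 to 9340 after differentiation, the highest being control D7 at DIV4, while the 8 OPC markers (Pdgfra, Cspg4 and others) were present throughout. OPC markers were lower in null than in control without overlap at every stage, with 451 to 580 against 647 to 860 in OPCs, 183 to 222 against 238 to 425 at DIV2 and 203 to 232 against 312 to 443 at DIV4. Oligodendrocyte markers were also lower in null at DIV2, with 2290 to 2900 against 2980 to 4660, and overlapped at the other stages. The part of these marker differences in the comparisons of genotypes was not tested. Of 10 microglia markers, 8 (Aif1, Cx3cr1, Csf1r, Tmem119, C1qa, Itgam, Ptprc and Trem2) stayed under 1 in all 18 libraries, and so did 5 of 6 mesenchymal markers.

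Psap was by far the most abundant of the 9 transcripts. Over the 18 libraries its mean was 174.4 rescaled TPM, at percentile 98.1 of the 12462 genes tested, followed by Asah1 (30.82), Hexa (26.82), Smpd1 (18.26), Gm2a (16.0) and Neu1 (10.96). Gla (3.4), Arsa (3.214) and Galc (3.072), at percentiles 25.53 to 28.3, had similar means, and the ranges of these 3 genes over libraries overlapped. TPM is per transcript length, so these levels can be set side by side.

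Hexa and Gm2a, the enzyme subunit and the activator of the GM2 step, were higher in null without overlap between genotypes. For Hexa this is counted in OPCs and at DIV2 only, and both stages include clone D7, whose DIV4 value chose it. The DIV4 values of Hexa, which include the value by which it was chosen, are a description. Per stage, 25.2%, 30.9% and 26.7% of all genes did not overlap in either direction, and the share over all 3 stages together was not computed. In OPCs, Hexa had 1.47, 17.7 and 7.61 rescaled TPM in control D7, D3 and E8, and 20.2, 27.1 and 26.6 in null 3F, D6 and 7F. At DIV2 it had 2.29, 12.3 and 15.1 in control and 67.5, 48.2 and 52.0 in null. At DIV4 it had 2.87, 19.9 and 24.4 in control and 43.0, 52.7 and 41.8 in null. Every null value lay above every control value of its stage, and clone D7 was the lowest control at all 3 stages.

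The control mean of Hexa was 8.93 ± 8.21 in OPCs, 9.91 ± 6.75 at DIV2 and 15.7 ± 11.4 at DIV4 (SD, n = 3 clones). In null it was 24.6 ± 3.88, 55.9 ± 10.2 and 45.8 ± 5.99 (SD, n = 3 clones), so the ratio of means was 2.76, 5.64 and 2.92. In control OPCs the SD was nearly as large as the mean. On the log2(rescaled TPM + 1) scale, which understates changes of low genes, the null minus control change was 1.79 (SE 0.76) in OPCs and 2.66 (SE 0.76) at DIV2, and limma's adjusted p was 0.135 and 0.0835, so neither was called. The SE is 1 estimate shared by all 6 groups, so it includes the DIV4 value by which Hexa was chosen. These p-values therefore support nothing for Hexa. At DIV4 the change was 1.87. With D7 left out at every stage, the changes were 1.0, 1.94 and 1.02. D7 is the clone whose value chose Hexa, so these changes without it are a description, with no test.

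The low level of Hexa in D7 was present before differentiation as well as at day 4. Hexa was lower in the 3 D7 libraries than in each of the 15 others. In all, 80 of the 12462 tested genes (0.642%) had this pattern in D7, against 9 to 36 genes in each other clone. By the gap between the lowest other library and the highest D7 library, 2.65 times for Hexa, Hexa had rank 11 among the 80. This description uses the day 4 value by which Hexa was chosen. None of the other 8 genes and none of the other listed sphingolipid genes had the pattern in D7. The table lists a single Hexa transcript, ENSMUST00000026262, so a switch between transcripts cannot be seen there. In the GENCODE M21 annotation it has 14 exons at chromosome 9, 59539540 to 59565109, plus strand, GRCm38. Its length there is 1996 bases, against 1865 as deposited. The 9 tested genes within 500 kb of Hexa had a median D7 to other control ratio of 1.04 in OPCs, 0.979 at DIV2 and 1.02 at DIV4, against 0.116, 0.166 and 0.13 for Hexa. Among them Myo9a was also lowest in the 3 D7 libraries, by less, with ratios of 0.721, 0.697 and 0.524, and Thsd4 was at 0.154 in OPCs but at 1.04 and 3.93 afterwards. The null to control ratio of the 9 genes had a median of 1.01, 0.947 and 1.03. Of the 31-base runs of the Hexa transcript in GENCODE M21, 0% occur in another gene.

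D7 also stood apart in cell markers. At DIV4 its 7 oligodendrocyte markers summed to 9340 rescaled TPM, against at most 2360 in the null clones of that stage, and its 8 astrocyte markers to 94.6, against 412 to 491 in null. In OPCs, where D7 was as low for Hexa, its oligodendrocyte markers summed to 278 and lay within the control range of 105 to 682. Its astrocyte markers were the lowest of the control clones at every stage, with 60.4 in OPCs, where D3 and E8 reached at most 163 and null clones had 98.1 to 117, and 115 at DIV2, where null clones had 261 to 279. The part of these differences in the level of Hexa was not tested. In cultures measured in bulk, fewer cells of a type and less RNA per cell cannot be told apart.

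**Figure D1:**
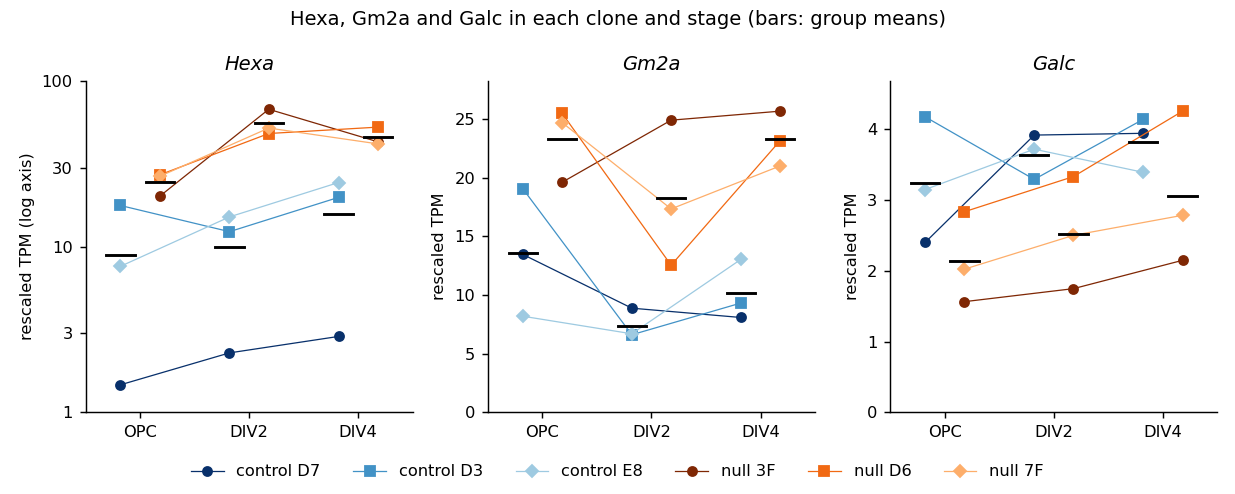
Rescaled TPM (vertical axis, log scale for Hexa) of Hexa, Gm2a and Galc by stage (horizontal axis), with 1 point per library, lines joining the libraries of a clone, control clones in blue, null clones in brown and orange, and black bars at group means. Control D7 stays at 1.47 to 2.87 for Hexa, null clones lie above control clones for Hexa and Gm2a at each stage, and for Galc the clones 3F and 7F lie below D6.

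Gm2a was the gene called between genotypes at both differentiated stages, higher in null. In OPCs it had 13.5, 19.1 and 8.2 rescaled TPM in control D7, D3 and E8, and 19.6, 25.5 and 24.7 in null 3F, D6 and 7F. At DIV2 it had 8.88, 6.62 and 6.7 in control and 24.9, 12.6 and 17.4 in null. At DIV4 it had 8.09, 9.32 and 13.1 in control and 25.7, 23.2 and 21.0 in null. All 3 null clones lay above all 3 control clones at each stage, with the narrowest gap in OPCs, between D3 and 3F.

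At DIV2 the null mean of Gm2a was 2.47 times the control mean, a log2 change of 1.16 (SE 0.27) with a limma adjusted p of 0.0338. At DIV4 the ratio was 2.29, a log2 change of 1.14 (SE 0.27) with an adjusted p of 0.0282. In OPCs null exceeded control by 0.80 on the log2 scale (SE 0.27), short of the threshold with an adjusted p of 0.0707. Both calls were near the threshold: leaving out clones gave changes of 0.92 to 1.39 at DIV2, with adjusted p of 0.0361 to 0.288, and 1.01 to 1.32 at DIV4, with adjusted p of 0.0168 to 0.156. The call at DIV2 was lost without D3 (adjusted p = 0.0774), E8 (0.0513), 3F (0.288) or 7F (0.230), and that at DIV4 without D7 (0.0844), 3F (0.123), D6 (0.0733) or 7F (0.156). The direction stayed the same under each of these.

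Gm2a lies on chromosome 11, 55098115 to 55113029, plus strand, a chromosome whose genes as a whole differed between clones. The median of 842 other coding genes of chromosome 11 with a mean of at least 1 rescaled TPM, each divided by its mean over the 6 clones of a stage on the log2(rescaled TPM + 1) scale, was 0.80 to 0.836 in control D3 and 0.801 to 0.867 in control E8 over the 3 stages. It was 1.04 to 1.09 in control D7 and 1.08 to 1.14 in the 3 null clones. Control D3 and E8 were thus the low clones of the chromosome, and D7 was near the null clones.

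Among the 20 chromosomes, chromosome 11 had the highest median null minus control log2 difference at each stage, with 0.322, 0.349 and 0.341 in stage order over 622 coding genes with a mean of at least 5. The change of Gm2a exceeded these medians by 0.476, 0.81 and 0.802. Clone D7, whose chromosome 11 level was near that of the null clones, still lay below every null clone for Gm2a, the lowest null value being 1.46, 1.41 and 2.6 times that of D7. The 12 tested genes within 500 kb of Gm2a had a median null to control ratio of 1.45, 1.55 and 1.37, against 1.71, 2.47 and 2.29 for Gm2a. They included genes with far higher ratios than Gm2a, namely Anxa6 (37.1, 75.5 and 70.2) and Sparc (3.02, 9.24 and 9.0). The part of the chromosome-wide difference in the result for Gm2a was not tested.

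Galc showed the opposite order in 2 of the 3 null clones. It had 2.4, 4.17 and 3.15 rescaled TPM in control D7, D3 and E8 as OPCs, and 1.56, 2.83 and 2.02 in null 3F, D6 and 7F. At DIV2 it had 3.92, 3.29 and 3.72 in control and 1.75, 3.33 and 2.5 in null. At DIV4 it had 3.94, 4.14 and 3.39 in control and 2.15, 4.25 and 2.78 in null. Clones 3F and 7F lay below every control clone at each stage, while D6 lay within the control range at DIV2 and in OPCs and above it at DIV4. The log2 change between genotypes was -0.43, -0.42 and -0.28 (SE 0.22 each) and was not called (limma adjusted p = 0.217, 0.412 and 0.53). On the deposited TPM, where all genes shifted by a median of 1.5 in OPCs, the OPC change of Galc was 0.80.

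This order was shared by the genes around Galc, on chromosome 12, 98202294 to 98259459, minus strand. The median ratio to the stage mean of 93 other coding genes of chromosome 12 from 90 Mb on was 0.66 to 0.678 in 3F and 0.744 to 0.87 in 7F over the stages. In D6 it was 1.12 to 1.13, and in the control clones 1.1 to 1.31. Galc itself was at 0.685 to 0.72 in 3F, 0.84 to 0.873 in 7F and 1.07 to 1.2 in D6. In the 138 coding genes between 60 and 90 Mb the order was turned round, with 1.25 to 1.28 in 3F, 1.09 to 1.2 in 7F and 0.844 to 0.967 in the other 4 clones, and in the 129 genes below 60 Mb all 6 clones lay between 0.914 and 1.06. These limits at 60 and 90 Mb were set after the values were seen. Within 5 Mb of Galc, the 29 other coding genes gave 0.677 to 0.686 in 3F and 0.791 to 0.851 in 7F. The part of this regional difference in the level of Galc was not tested.

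**Figure D2:**
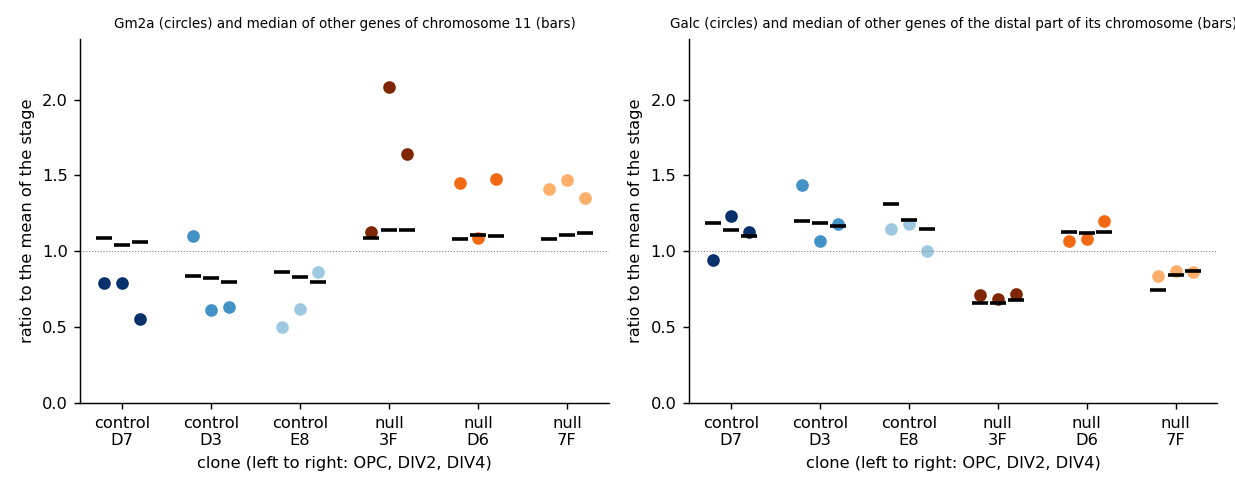
Ratio to the mean of the 6 libraries of a stage (vertical axis) for Gm2a and Galc (circles) and for the median of the other coding genes of chromosome 11 or of chromosome 12 from 90 Mb on (black bars), by clone with the 3 stages from left to right. The circles of Galc follow the bars of its region, low in 3F and 7F, while the circles of Gm2a in control D7 lie below bars that are at 1.04 to 1.09.

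Around the other 7 genes the same 5-Mb windows varied less in most cases. Their medians lay between 0.956 and 1.07 for Hexa (72 genes), 0.932 and 1.07 for Smpd1 (57), 0.971 and 1.08 for Psap (47), 0.952 and 1.08 for Arsa (46) and 0.93 and 1.17 for Gla (39). In OPCs the Gla window was at 1.17 in null D6 and 1.12 in null 7F, against 0.93 to 0.998 in control. Null 3F, at 0.965, lay within the control range. The part of this in the level of Gla was not tested. For Neu1 (113 genes) null 3F and 7F were at 0.885 to 0.963 against 0.994 to 1.14 in control. For Asah1 (17 genes) the window separated the genotypes in OPCs, with 0.851 to 0.925 in control and 1.13 to 1.16 in null, and ranged from 0.877 to 1.12 over the later stages, where the genotypes overlapped.

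Gla, the enzyme of globoside breakdown, was the gene called between genotypes in OPCs. It had 1.93, 2.12 and 2.13 rescaled TPM in control D7, D3 and E8 and 2.84, 3.86 and 3.72 in null 3F, D6 and 7F. At DIV2 it had 2.72, 3.45 and 3.12 in control and 4.54, 5.2 and 4.26 in null, and at DIV4 4.31, 3.14 and 2.83 against 4.04, 3.49 and 3.49. The genotypes were apart in OPCs and at DIV2 but overlapped at DIV4, where D7 was the highest clone. In OPCs the null minus control change was 0.54 on the log2 scale (SE 0.14) with a limma adjusted p of 0.0236, and at DIV2 it was 0.47 (SE 0.14) with an adjusted p of 0.108. Leaving out E8, D6 or 7F ended the call in OPCs, with adjusted p of 0.0641, 0.116 and 0.175. Before rescaling, control OPCs had only 0.267 to 0.673 TPM of Gla, divided by factors of 0.125 to 0.317, and null OPCs had 2.79 to 3.87 TPM. Of the 31-base runs of Gla, 3.12% also occur in other genes, most often in Rnf8, the highest such share among the 9.

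Asah1, acid ceramidase, had 21.3, 18.8 and 14.1 rescaled TPM in control OPCs (D7, D3, E8) and 24.7, 25.9 and 29.3 in null OPCs (3F, D6, 7F), again without overlap. On the log2 scale null OPCs were higher by 0.55 (SE 0.18), which was not called (limma adjusted p = 0.0560) with all clones and was called without D7 (0.67, adjusted p = 0.0122). The genes around Asah1 were apart in the same direction in OPCs, as given above, with Asah1 itself at 0.663 to 0.978 of the stage mean in control and 1.13 to 1.33 in null; their part in its level was not tested. At DIV2 the groups met, with 33.9, 35.3 and 29.4 in control and 42.1, 35.3 and 40.2 in null, and at DIV4 they overlapped, with means of 34.9 ± 9.03 and 33.2 ± 4.02 (SD, n = 3 clones). Arsa, the sulfatide enzyme, did not overlap at DIV2, with 2.13, 2.91 and 2.91 in control and 5.33, 3.61 and 4.41 in null, a log2 change of 0.57 (SE 0.20, adjusted p = 0.160) that was not called.

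Counted over the genes, 1 of 9 was called in OPCs (Gla), 1 of 9 at DIV2 (Gm2a) and 1 of 8 without Hexa at DIV4 (Gm2a), all higher in null. The limma test called 12%, 2.80% and 4.82% of all 12462 genes in the same comparisons, so in OPCs the share among the 9 genes was near the background. Without overlap between genotypes were 4 of 9 in OPCs (Hexa, Gm2a, Asah1 and Gla), 4 of 9 at DIV2 (Hexa, Gm2a, Arsa and Gla) and 1 of 8 without Hexa at DIV4 (Gm2a), each higher in null, against 25.2%, 30.9% and 26.7% of all genes in either direction. Both counts of 4 include Hexa, which was chosen by the DIV4 value of clone D7. On the deposited TPM 9 of 9 were called in OPCs and 0 at DIV2 and DIV4, and with only the compared libraries in the fit 0 were called at each stage. The median log2 change was 0.179 over the 9 genes in OPCs and 0.247 at DIV2, and 0.034 over 8 at DIV4, beside 0.039, 0 and -0.014 over all genes.

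Psap and Smpd1 did not separate the genotypes at any stage. Psap had 68.3, 119.3 and 70.8 rescaled TPM in control OPCs (D7, D3, E8) and 64.8, 95.5 and 88.7 in null OPCs (3F, D6, 7F). At DIV2 it had 180.2, 176.1 and 189.7 in control and 262.7, 181.4 and 206.0 in null, and at DIV4 264.0, 199.6 and 225.0 against 249.3, 260.6 and 237.9. All 6 clones had more at DIV2 than as OPCs, by 1.48 to 4.06 times, and the DIV4 values of both genotypes lay above all OPC values. Smpd1 had 10.2 to 17 rescaled TPM in OPCs and 19.0 to 22.9 in the 12 differentiated libraries. All 6 OPC values lay below all differentiated values.

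**Figure D3:**
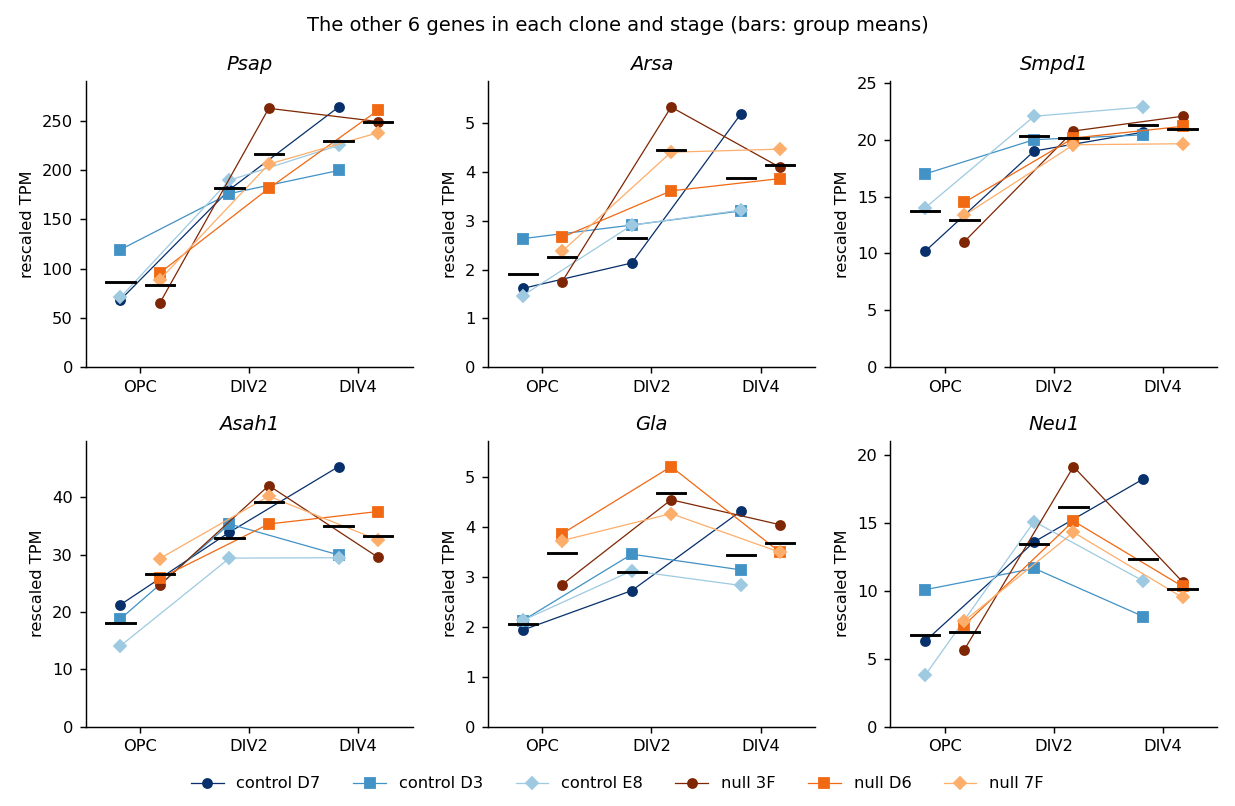
Rescaled TPM (vertical axis) of Psap, Arsa, Smpd1, Asah1, Gla and Neu1 by stage (horizontal axis), with 1 point per library, lines joining the libraries of a clone and black bars at group means. Levels are lower in OPCs than at DIV2 in all 6 clones for each of the 6 genes, and control D7 (dark blue circle) is the highest control clone at DIV4 for Psap, Arsa, Asah1, Gla and Neu1.

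Between OPCs and DIV4, 6 of 8 genes rose in control clones (Psap, Asah1, Neu1, Arsa, Smpd1 and Gla) and 3 of 8 in null clones (Psap, Smpd1 and Arsa), and none fell. Across all genes limma called 32.3% and 33.3% of 12462 in either direction. In control the log2 changes were 1.44 for Psap (SE 0.21, limma adjusted p = 0.000279), 0.91 for Asah1 (adjusted p = 0.00182), 0.80 for Neu1 (adjusted p = 0.0408), 0.74 for Arsa (adjusted p = 0.0106), 0.63 for Smpd1 (adjusted p = 0.00593) and 0.52 for Gla (adjusted p = 0.0127). Neu1 was no longer called with the clone as a block (adjusted p = 0.0612) or without D7, E8, 3F, D6 or 7F (0.0676 to 0.284). With only the control libraries of these stages in the fit, 0 of 8 were called. Gm2a (-0.34, adjusted p = 0.363; 2.01 on the deposited TPM, where the median of all genes was also 2.01) and Galc (0.20, adjusted p = 0.512) were not called.

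In null clones the changes were 1.59 for Psap (adjusted p = 8.24e-05), 0.66 for Smpd1 (adjusted p = 0.00336) and 0.67 for Arsa (adjusted p = 0.0171). Asah1 (0.31, adjusted p = 0.201), Neu1 (0.49, adjusted p = 0.195) and Gla (0.07, adjusted p = 0.753) were not called there, although Asah1 and Neu1 were higher at DIV4 than in OPCs in all 3 null clones. Without 3F neither Smpd1 (adjusted p = 0.0757) nor Arsa (0.135) was called, and without 7F Arsa was not (0.129). The median change of the 8 genes was 0.684 in control and 0.426 in null, beside 0.026 and -0.01 over all genes.

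The larger number in control does not show a difference between genotypes. The test of the difference itself called 0 of 8 genes for the change from OPC to DIV4, where limma called 2.78% of all genes, and 2 of 8 had an unadjusted p under 0.05. These were Asah1, whose change was lower in null, at -0.60 (SE 0.25, limma adjusted p = 0.199), and Gla, with -0.45 (SE 0.20, adjusted p = 0.229). For both transcripts every null OPC library lay above every control OPC library. The share of all genes with an unadjusted p under 0.05 was not computed.

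The control rise also rested in part on clone D7, which at DIV4 was the highest control library for 5 of these 6 genes. It had 45.4 rescaled TPM of Asah1 against 29.96 and 29.47 in D3 and E8, 18.2 of Neu1 against 8.1 and 10.7, and 5.19 of Arsa against 3.2 and 3.22. Without D7, Psap, Asah1 and Smpd1 were called, and the changes of Arsa (0.49, adjusted p = 0.119), Gla (0.35, adjusted p = 0.120) and Neu1 (0.51, adjusted p = 0.284) were not. For Neu1 this is not particular to D7, since its call was also lost without E8 or any of the null clones, as given above. Control D7 at DIV4 is the library with the summed oligodendrocyte marker level of 9340 rescaled TPM. The part of that difference was not tested.

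Between the differentiated stages none of these genes was called. From DIV2 to DIV4 limma called 0 of 8 genes in control, 0 of 8 in null and 0 of 8 for the difference between genotypes, against 0.233%, 2.10% and 0.0241% of all genes. An unadjusted p under 0.05 was reached by 0, 1 and 0 of the 8, and the share of all genes reaching it was not computed. The 1 gene was Neu1, which had 19.1, 15.1 and 14.3 rescaled TPM in null 3F, D6 and 7F at DIV2 and 10.7, 10.3 and 9.5 at DIV4 (adjusted p = 0.291). Gla was also lower at DIV4 than at DIV2 in all 3 null clones, at 0.67 to 0.89 times.

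**Figure D4:**
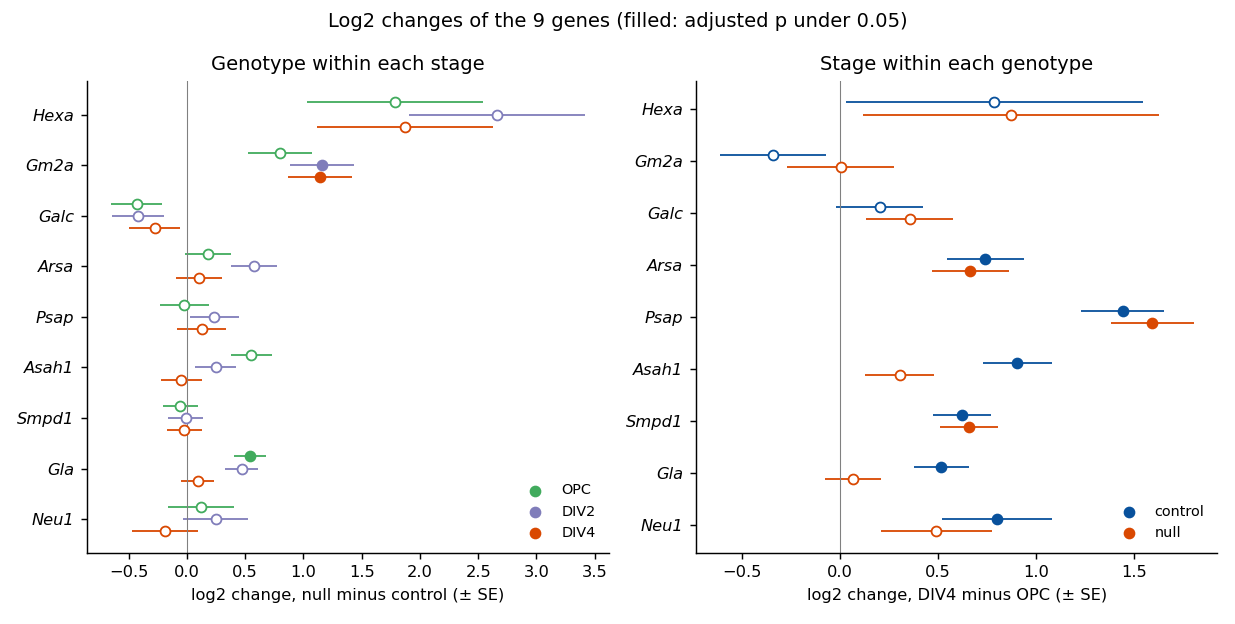
Log2 change with its standard error (horizontal axis) of the 9 genes, null minus control at each stage (left) and DIV4 minus OPC in each genotype (right), with filled points where limma's adjusted p was under 0.05. On the left Gla is filled in OPCs and Gm2a at DIV2 and DIV4, and Hexa, whose DIV4 changes were not tested, has the widest error bars. On the right Psap, Arsa and Smpd1 are filled in both genotypes.

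The 9 genes did not vary as 1 group over the 18 libraries. Pearson's r of log2(rescaled TPM + 1) was 0.941 between Psap and Smpd1, 0.881 between Psap and Arsa and 0.824 between Asah1 and Neu1. It was 0.621 between Hexa and Gm2a, -0.554 between Gm2a and Galc and -0.0457 between Gm2a and Psap. These values are descriptions: the libraries share clones and stages, so no p is given.

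Among 6923 to 6924 coding genes with a mean of at least 5, the genes most like each of the 9 over the 18 libraries were named by the same r. For Smpd1 the first was the lysosomal protease Ctsd (0.973), for Asah1 Atg4a (0.938), a protease of autophagy, and then Ctns (0.932), the lysosomal cystine transporter. For Psap it was Gadd45a (0.975), for Neu1 Adipor1 (0.956) and for Arsa Ptgds (0.928), a prostaglandin synthase made by oligodendrocytes. For Gla it was Cgrrf1 (0.872). The first 3 for Galc, Mark3 (0.954), Eif5 (0.936) and Esyt2 (0.889), all lie on the same chromosome beyond 90 Mb. For Gm2a they were Sco1 (0.92), Tmed3 (0.903) and Slc39a11 (0.9), of which Sco1 and Slc39a11 lie on chromosome 11. For Hexa they were Gm6768 (0.909), Sparc (0.904) and Ikbip (0.892). The r of Hexa uses the D7 value at day 4 by which Hexa was chosen, and so favours genes that are low in D7. Sparc, like Hexa, was lowest in the 3 D7 libraries, as were 80 of 12462 tested genes in all.

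Other genes of the pathway came from fixed lists. Of 8 further lysosomal genes, 3 rose from OPC to DIV4 in control: Scarb2, the receptor that carries glucocerebrosidase to lysosomes (log2 change 1.86), Ctsa, the protective partner of Neu1 (1.33), and Npc1, a lysosomal cholesterol exporter (0.90). In null 3 of 8 rose: Scarb2 (2.39), Ctsa (1.47) and Npc1 (1.01). None of the 8 was called lower, so as calls in either direction these counts are near the 32.3% and 33.3% of all genes. Rises alone were 2007 in control and 2051 in null of all 12462 genes. The median change was 0.82 in control and 0.839 in null. Between genotypes limma called 0 of 8 at each stage, against 12%, 2.80% and 4.82% of all genes. An unadjusted p under 0.05 was reached by 2, 2 and 1 of the 8, and the share of all genes reaching it was not computed.

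Neu4, a sialidase that offers mouse cells another way to break down GM2, had 1.75, 8.8 and 2.71 rescaled TPM in control (D7, D3, E8) and 15.4, 14.4 and 14.2 in null (3F, D6, 7F) at DIV2, with no overlap, a log2 change of 1.76 and an adjusted p of 0.118.

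Of 12 genes that break down sphingolipids outside lysosomes, 8 passed the filter on low values. In null, 3 of 8 rose between OPC and DIV4 (Acer3, 1.12; Sphk2, 0.85; Sgpl1, 0.79), and in control Sphk2 rose (0.47) and the sphingomyelinase Smpd3 fell by 0.78 on the log2 scale, again beside 33.3% and 32.3% of all genes. Sgpl1, the lyase that ends sphingosine breakdown, was higher in null at DIV2 (0.96, limma adjusted p = 0.0221). Sphk2, a sphingosine kinase, was lower in null OPCs (-0.69, adjusted p = 0.00409). Of 9 genes that make the substrates, 4 were called in control and 5 in null, beside the same 32.3% and 33.3% of all genes in either direction. The 4 that rose in both genotypes were Ugt8a, the galactosylceramide synthase (2.67 in control, 1.70 in null), Sgms2 (2.01 and 1.59), Fa2h (1.70 and 1.15) and Cers2 (1.09 and 0.77). Over all 12462 genes, 2007 rose in control and 2051 in null, and those rising in both were not counted. Ugcg, the glucosylceramide synthase, fell in null (-0.65) and was higher in null than in control OPCs (0.62, adjusted p = 0.0380). Of 4 regulators of lysosomal genes, Tfeb (2.18 in control, 2.39 in null) and Mitf (1.14 and 1.66) rose in both, and Tfe3 was lower in null OPCs (-0.46, adjusted p = 0.0267).

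The transcripts behind the gene sums were examined where a gene has several. Psap is listed with 5 transcripts. ENSMUST00000105465 held 58.6% of its summed level and ENSMUST00000179238, which has a further exon of 9 bases at chr10:60297537-60297545 and so 3 further amino acids, held 27.5%. The junction is shown because it is the part that tells these transcripts apart, with 15 bases of the exon on each side and the small exon in capitals.
ENSMUST00000105465: atgttgatgcacatgcaacccaaggaaatc
ENSMUST00000179238: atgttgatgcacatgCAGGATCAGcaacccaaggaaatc

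The share of Psap held by the form with the small exon was 24.8% ± 8.68 in control and 25.7% ± 4.1 in null OPCs, 22.0% ± 1.73 and 19.6% ± 4.22 at DIV2, and 32.6% ± 15.1 and 36.9% ± 2.91 at DIV4 (SD, n = 3 clones). In null the DIV4 shares of 34.7% to 40.2% lay above all DIV2 shares, 15.4% to 23.8%. In control they ranged from 17% in D7 to 47.2% at DIV4. The forms differ by few bases, and how reads were divided between them is not given in the sources used here, so the split is uncertain.

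For Neu1, protein-coding transcripts made up 47.8% ± 7.39 of the summed level in control OPCs and 74.5% to 78.4% on average in the other 5 groups, the rest being annotated as retained introns. In control D3 OPCs a retained intron held 6.048 of 10.07 rescaled TPM. The coding transcript alone had 3.168, 3.975 and 2.021 in control OPCs (D7, D3, E8) and 4.023, 6.094 and 6.37 in null OPCs (3F, D6, 7F), whereas the gene sums overlapped. These coding values did not overlap, but control D3 and null 3F were nearly equal. Of all gene sums, 25.2% did not overlap in OPCs, and the share among single transcripts was not computed. The Neu1 changes above are of gene sums, and the part of the retained introns in them was not tested. For Arsa the coding share was 39.6% to 55.5% and for Asah1 77.9% to 84.6% on average per group. Hexa, Gm2a, Galc and Smpd1 are listed with 1 transcript each.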

How the data were processed

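Total RNA of 18 libraries was sequenced from TruSeq stranded libraries after rRNA removal, per the labels' protocols. The authors deposited 1 table of TPM for 93666 transcripts. STAR, Picard and mm10 are named per the submitters' processing notes; the step that made TPM and its annotation are not given in the sources used here. Read depth cannot be read from TPM, so no counting interval is given, and 54031 to 70964 transcripts per library were above 0. GENCODE M21, used for positions, exons and transcript sequences, held 96.5% of the transcript identifiers, and 25 gene symbols stored as dates were restored. Transcript lengths were set beside those of M21 for the 9 genes only. They differed for Hexa (1865 bases deposited, 1996 in M21), Galc (3822 and 3832) and Smpd1 (2411 and 2412).

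Transcripts were summed by symbol to 38046 genes and divided by median-of-ratios factors over 11432 genes. With limma 3.58.1 in R 4.3.3, log2(rescaled TPM + 1) of 12462 genes with a mean of at least 1 was fitted with 6 group means over 18 libraries, with trended empirical Bayes, and p-values were adjusted by Benjamini-Hochberg within a comparison, called under 0.05. The fit was tested on simulated data. All 9 genes passed the filter. Hexa was left out of counts of calls and of overlap that use DIV4.

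Same-named clones are the same cell line, so they pair the stages; deviations from group means correlated by 0.12 on average between libraries of a clone (-0.00874 to 0.424) and by -0.06 between clones. The genes named are the 9, the fixed lists of lysosomal, extralysosomal, substrate-making and regulating genes, and the 3 coding genes most like each. Members and lists were chosen with earlier results of these data known. Neighbour windows and chromosome limits were chosen after values were seen. Some genes of the fixed lists are not reported here.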

Additional observations from a re-analysis of the deposited data

How the results depend on the processing

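The number of the 9 genes called depended on the scaling and on the libraries that enter the fit. In OPCs, 1 gene was called, Gla. The count was 9 on the deposited TPM, where the median change of all genes was 1.5, and 4 over protein-coding transcripts. It was 0 after quantile normalization, 0 with only the libraries compared in the fit, and 0 to 3 when a clone was left out. With a mean of at least 5 it was 0, but that filter removes Gla, Arsa and Galc before any test. That setting therefore cannot show whether the call of Gla is kept. At DIV2, 1 gene was called; it was 0 on the deposited TPM, over protein-coding transcripts, without a filter and with only the libraries compared, and 0 to 2 without a clone. The highest counts without a clone in OPCs and at DIV2 were without D7 and include Hexa, which D7's value chose, so they support nothing for Hexa. At DIV4, 1 gene was called; it was 0 on the deposited TPM, without a filter and with only the libraries compared, and 0 to 1 without a clone. From OPC to DIV4, the 6 control calls became 0 with only the libraries compared and 3 to 6 without a clone, and the 3 null calls became 6 over protein-coding transcripts and 1 to 3 without a clone. From DIV2 to DIV4 in null, 1 was called with only the libraries compared. The difference between genotypes in the change from OPC to DIV4 was called for 8 genes on the deposited TPM, where the median of all genes was -1.68. A fit on fewer libraries has fewer residual degrees of freedom; otherwise the cause was not tested.

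Galc in OPCs turned from -0.43 to 0.80 on the deposited TPM. Gm2a from OPC to DIV4 in control turned from -0.34 to 2.01 on the deposited TPM, where the median of all genes was 2.01, and to 0.36 over protein-coding transcripts. Gla from OPC to DIV4 in null ranged from -0.094 to 0.159 without a clone. Of 442 recomputed log2 changes, 377 kept their direction and call, 43 lost and 18 gained a call, and 4 turned. The 377 include 16 for Hexa at DIV4, which has no call and was counted as kept where its change moved by less than the groups' SD. Of the gained calls, 2 were for Hexa in OPCs and 1 for Hexa at DIV2, and those without D7 support nothing for Hexa.

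With the clone as a replicate block, 1, 1 and 1 of the genes were called between genotypes in OPCs, at DIV2 and at DIV4, 5 from OPC to DIV4 in control and 3 in null. The block ended no call of these genes other than Neu1. Over all genes, 29 calls from DIV2 to DIV4 in control became 48 with the block, and 262 in null became 506. Counts over all genes moved too. Between genotypes, 1493 in OPCs became 242 to 10446 over the settings, 349 at DIV2 became 203 to 378 and 601 at DIV4 became 163 to 868, and without a clone 336 to 2359, 110 to 646 and 102 to 1085. From OPC to DIV4, 4021 in control became 260 to 11364, 4150 in null 2912 to 5368 and the 347 differences between genotypes 72 to 9481. From DIV2 to DIV4 the counts of 29, 262 and 3 became 20 to 72, 67 to 1996 and 0 to 10.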
